A study of Mus musculus with 15 samples.

Results

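The 42 genes described here encode complement and coagulation proteins: the initiators, central components, terminal components and inhibitors of complement, and the clotting factors, the contact and kinin system, fibrinogen, anticoagulant serpins and fibrinolysis genes. They were chosen by symbol from a list of names, and all 42 were found, with 1 entry each, among the 45861 genes of the table. The selection rule uses no measured value, but the list was drawn up with earlier results of these data known. All 42 passed the filter on low values that left 13840 genes for testing. RNA of snap-frozen liver from C57BL/6 mice was sequenced in 15 libraries. Wild-type (WT) mice and mice lacking Fkbp5 (KO), the gene of an HSP90-binding immunophilin that restrains the glucocorticoid receptor, were given a liquid diet with or without 5% ethanol over 10 days. A single gavage followed, of 5 g/kg ethanol in the ethanol groups and of maltose in the controls, and liver was collected after 9 hours. Each library is named as a separate mouse: the WT groups hold 4 libraries on the control diet and 4 on ethanol, and the KO groups 3 and 4. The KO is given as Fkbp5-/- with no detail of the allele, and age and sex are not in the labels. The library called WT ethanol 4 is titled WT while its genotype entry reads KO. It stayed with WT by its title.

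Complement is a cascade of plasma proteases that starts from antibody-bound C1, from lectins that bind microbial sugars or from factor B on surfaces, converges on C3 and ends in a pore of terminal components in the target membrane. Coagulation is a second protease cascade, in which vitamin K dependent zymogens and their cofactors produce thrombin, which turns fibrinogen into fibrin, while plasmin dissolves the clot. Hepatocytes make most of these proteins and secrete them into blood. Several of them, fibrinogen and C3 among them, are acute phase proteins whose genes respond to interleukin-6 signalling.

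Levels are in FPKM, a fragment density per kilobase scaled to library size, and differences are on the log2(FPKM + 1) scale with their standard errors. A gene was called where limma's p, adjusted by Benjamini-Hochberg over the 13840 genes, was under 0.05. Depth estimated from the smallest values ran from 23230000 to 29720000 fragments per library. At that depth the member with the fewest fragments, C6 in its lowest library, rested on about 280 fragments, a counting error of about 5.97%. Fkbp5 stood at 15.2, 9.96, 5.77 and 3.27 FPKM in WT control, 54.5, 23.9, 47.9 and 45.2 in WT ethanol, 1.07, 1.56 and 0.351 in KO control and 5.41, 4.97, 3.20 and 2.45 in KO ethanol libraries, so that WT ethanol 4 was on the WT side. Only 1 library stood apart in its total: KO control 1 summed to 790741 FPKM, with 183764 FPKM of the small RNA gene Rn7s1, against sums of 416837 to 525108 and Rn7s1 listed at 0 in the other libraries. Xist, expressed from the inactive X chromosome, stood at 63.3 to 80.2 FPKM in 7 libraries, here called Xist-high, and at 0.0560 to 0.672 in the other 8, which expressed Ddx3y from the Y chromosome at 8.62 to 14.0 FPKM and are called Y-expressing. The Xist-high libraries were WT control 1 and 2, WT ethanol 2 and 4, KO control 1 and 2 and KO ethanol 3. All 8 hepatocyte markers searched for, among them Alb, Ttr and Hnf4a, were expressed, apart from Alb being listed at 0 in KO ethanol 3.

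By level the members spread widely. The 3 fibrinogen genes led with means over all libraries of 1940.4 FPKM for Fgb, 1536 for Fgg and 1418 for Fga, followed by C3, the central complement component, at 1395. Antithrombin (Serpinc1), vitronectin (Vtn), kininogen (Kng1) and plasminogen (Plg) came next, with means of 567, 563, 536 and 517 FPKM. In all, 8 members averaged at least 500 FPKM, 23 between 50 and 500 and 11 under 50. The lowest were Pros1, the gene of protein S, at 13.5 FPKM, complement C2 at 18.5 and coagulation factor XI (F11) at 18.6. Most neighbours in this order could not be separated: 35 of the 41 steps between adjacent members were smaller than the larger of the pair's SDs over libraries. C4b, C1ra, C1s1, Kng1 and Kng2 have near-identical copies in the mouse genome, and how reads were divided among such copies is not given, so their levels are uncertain.

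For most members a main transcript carried the level. Of the 42, 11 had 1 annotated isoform, and in 14 of the other 31 the leading isoform averaged at least 90% of the gene's FPKM. Masp2, a protease of the lectin pathway, was a case where the gene value is mostly that of a short transcript: its isoform of 744 bases averaged 84.0% of the gene's FPKM and the isoform of 2835 bases 16.0%. The gene is known to give a short product without the protease domain beside the full-length protease. In C8a the leading isoform averaged 52.5% and ranged from 31.4% to 67.4% over libraries.

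Ethanol in WT liver lowered 2 of the 42 members: C8g, the gamma chain of complement C8, and Klkb1, plasma prekallikrein, the protease zymogen that releases bradykinin from kininogen. That is 2 of 42 against 7.70% of all genes tested, and for lower calls alone against 4.62%, so the share called among members was not above that of all genes. C8g stood at 175, 173, 200.1 and 196 FPKM in WT control and 109, 99.4, 119.5 and 140.3 in WT ethanol libraries. All 4 ethanol values lay below all 4 controls. The means were 186 ± 14.0 (SD, n = 4) and 117 ± 17.6 (SD, n = 4), a log2 difference of -0.67 ± 0.14 (limma, adjusted p = 0.0153). Klkb1 stood at 44.5, 45.1, 39.8 and 57.1 FPKM in WT control and 32.1, 26.1, 19.8 and 36.8 in WT ethanol, again with no overlap, a log2 difference of -0.70 ± 0.18 (limma, adjusted p = 0.0336). The call of Klkb1 was lost when any of WT control 1, 2 or 4 or WT ethanol 1, 2 or 3 was left out, with limma adjusted p from 0.0546 to 0.0906. C8g kept its call in each such fit but not with FPKM rescaled to a common sum (limma, adjusted p = 0.0741).

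Below the threshold, the next member was C1s1, the C1s protease of the first complement component. Its values were 73.7, 80.4, 91.7 and 97.1 FPKM on the control diet and 68.1, 63.6, 60.4 and 70.1 in WT ethanol, without overlap, with a log2 difference of -0.38 ± 0.11 (limma, adjusted p = 0.0516). Without WT ethanol 4 its adjusted p was 0.0421 by limma. In all, 10 of the 42 members had an unadjusted p under 0.05, beside 3564 of the 13840 genes. The median log2 difference over the 42 members was -0.18, beside -0.04 over all genes, and 33 of the 42 were negative, beside 54.8% of all genes. In the Y-expressing libraries alone the members' median was -0.41 with 33 negative, beside -0.14 and 65.1% negative over all genes. In the Xist-high libraries alone it was 0.05 with 18 negative and 24 positive, beside 0.08 and 59.6% positive over all genes.

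**Figure D1:**
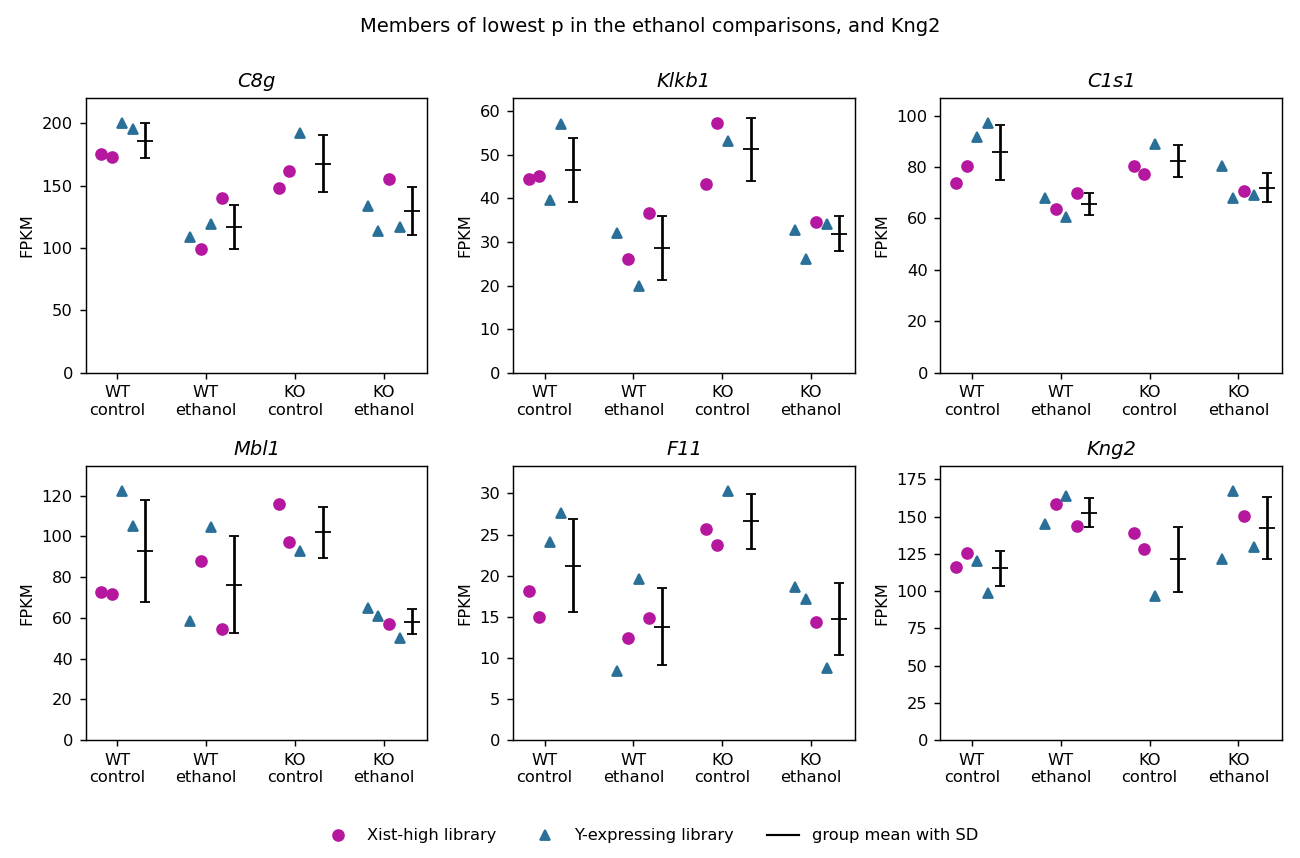
FPKM of 6 members in each library by group, with the group mean and SD as a bar at the right of each group. Circles are Xist-high and triangles Y-expressing libraries. C8g, Klkb1 and C1s1 show no overlap between WT control and WT ethanol, and Klkb1, Mbl1 and F11 none between KO control and KO ethanol.

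By role, the 6 members of the initiating complexes held between -0.68 (Mbl2, a mannose-binding lectin) and 0.23 (Masp1, a lectin pathway protease) in WT, with no call. Among the 4 genes of C2, C3, C4 and factor B, C3 and C4b pointed in opposite directions. C3 averaged 1150.0 ± 173 (SD, n = 4) FPKM in control and 1608 ± 191 (SD, n = 4) in ethanol liver, with a log2 difference of 0.49 ± 0.22 (limma, adjusted p = 0.186). C4b, which supplies the C4 part of the classical pathway convertase, averaged 216 ± 71.0 (SD, n = 4) and 132 ± 8.78 (SD, n = 4), a log2 difference of -0.66 ± 0.22 (limma, adjusted p = 0.0843). Neither was called, although neither overlapped between diets.

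Over all WT libraries the 6 terminal components had negative log2 differences, from -0.06 for C8b to -1.44 ± 0.66 for C9, which polymerises into the membrane pore, and C8g alone was called. In the Xist-high WT libraries alone, C8b, C8a and Hc were positive, at 0.65, 0.29 and 0.24, beside -0.77, -1.62 and -1.11 in the Y-expressing ones, and none of these was called. The 4 complement inhibitors (Cfi, the protease that cleaves C3b and C4b, its cofactor C4bp, the C1 inhibitor gene Serping1, and Vtn) lay between -0.25 and -0.15, with no call.

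Among the clotting factors the 7 vitamin K dependent genes lay between -0.32 for Proc, the anticoagulant protein C, and 0.33 for its cofactor Pros1. Prothrombin (F2) had -0.17, factor VII (F7) -0.25, factor IX (F9) -0.03, factor X (F10) -0.14 and protein Z (Proz) -0.27. Factor V (F5), the cofactor of factor X, had -0.10 and F13b, the carrier subunit of the fibrin cross-linking factor XIII, -0.17. None of these 9 genes was called.

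In the contact and kinin system F11, which activates factor IX, had -0.61, F12, the factor that starts contact activation, -0.06, Kng1 0.15 and Kng2, a second mouse kininogen gene, 0.41. Kng2 stood at 116, 126, 120.1 and 99.0 FPKM in WT control and 145, 159, 164 and 144 in WT ethanol, all higher, but was not called (limma, adjusted p = 0.0909). Of the serpins, Serpind1 (heparin cofactor II) had -0.44, Serpinc1 -0.18 and Serpinf2, the plasmin inhibitor, -0.10. Plg had -0.02, and Cpb2, a carboxypeptidase that slows clot lysis, 0.52, with no call among these 5. Over all 42 members, 2 were higher without overlap in WT ethanol (C3 and Kng2, against 6.40% of all genes) and 7 lower (C4b, C8g, Proc, Serpind1, C1s1, Proz and Klkb1, against 9.28%).

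**Figure D2:**
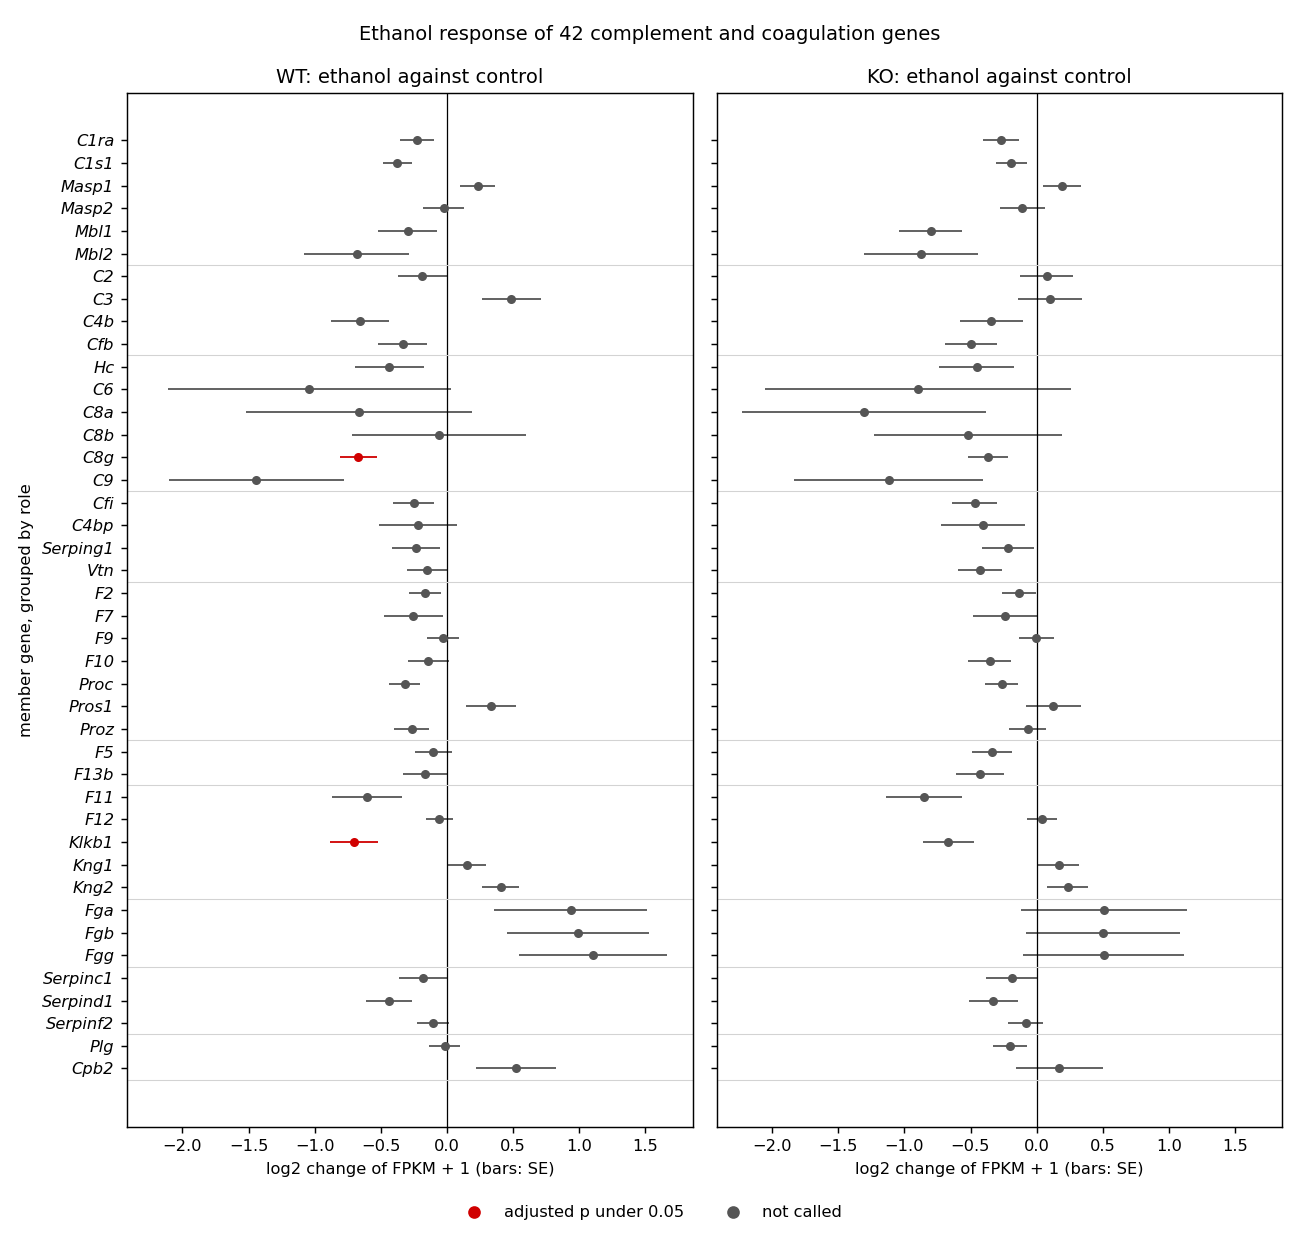
Log2 difference of FPKM + 1 between ethanol and control for each of the 42 members, with its SE as a bar, in WT (left) and KO (right), ordered by role with grey lines between roles. The 2 red points are the members called, C8g and Klkb1 in WT, and the longest bars in both panels belong to C6, C8a, C8b, C9, the fibrinogen genes and Mbl2.

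In KO liver no member was called for ethanol, where 4.13% of all genes were. An unadjusted p under 0.05 was found for 10 members, beside 3000 of the 13840 genes. The lowest p was that of Klkb1, at 43.3, 57.3 and 53.2 FPKM in KO control and 32.7, 26.1, 34.7 and 34.2 in KO ethanol, a log2 difference of -0.67 ± 0.19 (limma, adjusted p = 0.0707). Its difference in WT was -0.70, and no member's response was called different between genotypes. Mbl1, the other mannose-binding lectin, stood at 116, 97.1 and 92.8 FPKM in KO control and 64.7, 60.8, 56.8 and 50.1 in KO ethanol, a log2 difference of -0.80 ± 0.24 (limma, adjusted p = 0.076). F11 stood at 25.6, 23.8 and 30.4 and 18.6, 17.1, 14.4 and 8.75 FPKM, with -0.85 ± 0.29 (limma, adjusted p = 0.107). In all 3 genes every ethanol value lay below every control value. The genes F11 and Klkb1 lie 4.6 kb apart on chromosome 8, at chr8:45240659-45262050 and chr8:45266688-45294835 (GRCm38). With WT ethanol 3 left out, which changes only the shared estimate of the spread, Klkb1 and Mbl1 were called by limma with adjusted p of 0.0368 and 0.0482.

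Without overlap 9 members were lower in KO ethanol (Vtn, Cfi, Hc, Serpind1, Mbl1, C1ra, F13b, Klkb1 and F11) and 0 higher, where 15.2% and 5.72% of all genes were. The median log2 difference over the members was -0.25, beside -0.10 over all genes. With FPKM rescaled to a common sum the members' median became 0.09 and that of all genes shifted by 0.26, a setting in which the large total of KO control 1 raises every KO difference. C8g stood at 148, 162 and 193 FPKM in KO control and 133, 113, 155 and 117 in KO ethanol, with overlap and a log2 difference of -0.37 ± 0.15 (limma, adjusted p = 0.179). Hc, the gene of complement C5, had -0.45, close to its -0.43 in WT, and C1ra, the C1r protease, -0.27 beside -0.23. Cfb, factor B of the alternative pathway, had -0.50 beside -0.34.

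Some cell type markers were called in the diet comparisons. In WT all 10 markers of pancreatic acinar cells were called lower with ethanol, with summed levels of 39.8 to 99.3 FPKM in WT control, 5.80 to 29.3 in WT ethanol, 7.54 to 23.6 in KO control and 3.70 to 7.14 in KO ethanol. In KO 0 of these 10 were called for ethanol. On the control diet 6 of the 10 were called lower in KO than in WT, with a median log2 difference of -1.975 over the list. The 8 Kupffer cell markers summed to 68.5 to 142 FPKM in WT control, 40.9 to 97.7 in WT ethanol, 51.8 to 253 in KO control and 26.4 to 79.7 in KO ethanol, with none called in either diet comparison. The 253 was that of KO control 1, while KO control 2 and 3 held 74.1 and 51.8. The 8 sinusoidal endothelial markers summed to 46.7 to 112 FPKM in WT control, 51.1 to 73.5 in WT ethanol, 68.5 to 106 in KO control and 38.1 to 60.4 in KO ethanol, and 7 of 8 had a negative log2 difference in each genotype. The exception was Lyve1, called higher in WT with 1.82 ± 0.40 (limma, adjusted p = 0.0186) and at 1.30 in KO, not called. Of 8 stellate cell markers, Col3a1 was called lower in both genotypes, with -1.28 and -1.28. Of 8 hepatocyte markers, Cps1 was called higher in WT with 0.72 and Tat in KO with 1.77. No cholangiocyte or neutrophil marker was called. No marker of the 8 cell type lists was at 0 in all libraries, while none of 6 platelet markers passed the filter. The part of these cells in the members' differences was not tested. In bulk RNA, fewer cells of a type and less RNA per cell cannot be told apart.

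Fibrinogen varied widely between mice of the same group. Its 3 genes lie within 42.1 kb on chromosome 3 and encode the alpha (Fga), beta (Fgb) and gamma (Fgg) chains, which assemble in equal numbers. Fga stood at 825, 825, 1500.0 and 724 in WT control, 1330.2, 2475, 3916 and 769 in WT ethanol, 1541, 661 and 634 in KO control and 1201, 2951, 1483 and 437 in KO ethanol libraries. High values were found in WT control 3, WT ethanol 2 and 3, KO control 1 and KO ethanol 2 and 3, and low ones in WT control 4, WT ethanol 4, KO control 2 and 3 and KO ethanol 4, so that the diet groups overlapped in both genotypes. Fgb ran from 692 to 5131 FPKM and Fgg from 536 to 4391, each lowest in KO ethanol 4 and highest in WT ethanol 3, as was Fga. The log2 difference with ethanol in WT was 1.10 ± 0.56 for Fgg (limma, adjusted p = 0.232), 0.99 for Fgb and 0.94 for Fga, and in KO 0.51, 0.50 and 0.51. None was called.

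The chains kept nearly constant proportions across these swings. The ratio of Fgb to Fga stayed between 1.26 and 1.70, with a median of 1.38, while Fga itself ran from 437 to 3916 FPKM. The ratio of Fgg to Fga stayed between 0.991 and 1.22. Both numerators and denominators come from the same library, so that scaling cancels in these ratios. Saa1, a serum amyloid gene of the acute phase, stood at 3372, 1712 and 4544 FPKM in WT control 3 and WT ethanol 2 and 3, at 491 in KO ethanol 2 and at 70.3 in KO control 1, so that a high fibrinogen level was not always accompanied by a high Saa1.

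**Figure D3:**
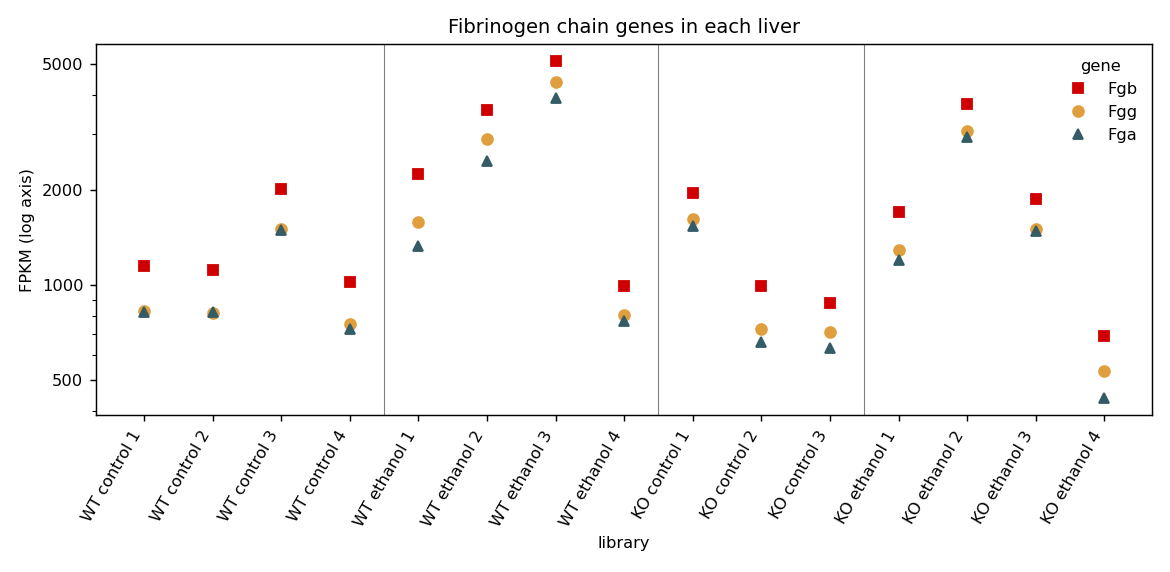
FPKM (log axis) of Fga, Fgb and Fgg in each of the 15 libraries, with vertical lines between the 4 groups. In every library Fgb is the highest of the 3, and the 3 genes move up and down together from mouse to mouse.

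Promoter windows of the fibrinogen genes are shown because the 3 genes move together and are known targets of interleukin-6. Each window runs from 250 bases before to 50 after the start of transcription in RefSeq (GRCm38.p6), and capitals mark CTGGGA or its reverse complement, the core of the type II interleukin-6 response element. The windows are chr3:83025903-83026202 on the plus strand, chr3:83049814-83050113 on the minus strand and chr3:83007474-83007773 on the plus strand, each printed 5′ to 3′ on its gene's strand.
Fga: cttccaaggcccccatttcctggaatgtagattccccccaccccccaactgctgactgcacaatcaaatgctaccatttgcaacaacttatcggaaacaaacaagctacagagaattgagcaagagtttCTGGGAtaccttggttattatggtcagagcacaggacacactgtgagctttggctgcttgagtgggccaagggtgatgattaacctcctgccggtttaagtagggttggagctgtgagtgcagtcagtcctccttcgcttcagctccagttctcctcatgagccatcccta
Fgb: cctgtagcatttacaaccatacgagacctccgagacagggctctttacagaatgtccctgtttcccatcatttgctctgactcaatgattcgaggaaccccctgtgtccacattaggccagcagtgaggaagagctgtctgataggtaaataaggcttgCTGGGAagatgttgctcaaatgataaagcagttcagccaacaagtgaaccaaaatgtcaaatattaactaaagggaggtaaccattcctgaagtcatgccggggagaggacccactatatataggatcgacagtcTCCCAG
Fgg: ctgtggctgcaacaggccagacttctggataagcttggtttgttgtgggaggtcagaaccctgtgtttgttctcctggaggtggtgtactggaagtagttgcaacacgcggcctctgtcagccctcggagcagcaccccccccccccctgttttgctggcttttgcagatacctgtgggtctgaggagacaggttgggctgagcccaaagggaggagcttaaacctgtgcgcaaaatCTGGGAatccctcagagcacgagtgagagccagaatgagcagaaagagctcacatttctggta
These letters are in all 3 windows, in 19 of the 33 members with a window and in 31.78% of all 32851 RefSeq windows on either strand. The STAT palindrome TTCNNNGAA was in the windows of Fga and Fgb, in 8 of the 33 and in 8.3% of all. A C/EBP motif, TTGCNNAA, was in 12 of the 33 and in 10.8% of all windows, Fga and Fgb again included. Such matches are descriptions of the letters alone.

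The knockout itself called no member. On the control diet 0.181% of all genes were called and 0 of the 42 members, 0 of them also at an unadjusted p under 0.05. The lowest p values were those of F10, at 75.2, 79.5, 86.2 and 78.2 FPKM in WT control and 112, 96.6 and 84.3 in KO control, with a log2 difference of 0.28 ± 0.16, of F13b with 0.29 ± 0.18 and of C2 with -0.33 ± 0.20. F13b stood at 40.8, 43.3, 36.7 and 46.7 and 46.3, 59.7 and 49.0 FPKM, and C2 at 17.2, 17.9, 27.1 and 22.1 and 16.0, 13.8 and 19.6. The groups overlapped for all 3 genes. With FPKM rescaled to a common sum the differences of F10 and F13b became -0.06 and -0.04.

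On the ethanol diet 0 of 42 members were called, where 0.101% of all genes were. An unadjusted p under 0.05 was found for 692 of the 13840 genes and 1 of the 42 members. That was Cpb2, at 101, 115, 218 and 90.6 FPKM in WT ethanol and 81.9, 117, 82.6 and 45.8 in KO ethanol, a log2 difference of -0.65 ± 0.30 (limma, adjusted p = 0.99). WT ethanol 3 held the highest value of Cpb2 and KO ethanol 4 the lowest, and the groups overlapped. Proz had 0.24 ± 0.13, from 59.7, 69.8, 51.0 and 68.6 FPKM in WT ethanol and 83.4, 73.1, 80.5 and 58.4 in KO ethanol, and Mbl1 -0.34 ± 0.22, from 58.6, 87.7, 104 and 54.5 and 64.7, 60.8, 56.8 and 50.1. No member was free of overlap between genotypes on either diet, where 6.81% of all genes were on the control diet and 2.44% on ethanol. Plg, C4b, Cfb, C2 and C3 share chromosome 17 with Fkbp5, the nearest being C4b at 6.33 Mb, and none of the 5 was called in either genotype comparison.

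The ethanol response was not called different between genotypes for any of the 42 members, nor for any of the 13840 genes (0%), of which 553 had an unadjusted p under 0.05 by limma. The count over all genes was 43, all lower, without KO control 1, and 7 with library weights, with 0 members among them in both fits. The lowest p among members was that of Mbl1, whose log2 response was -0.30 in WT and -0.80 in KO, a difference of -0.50 ± 0.33. C8g followed with 0.30 ± 0.21 and Vtn with -0.28 ± 0.23. Vtn, which keeps the terminal complex off host membranes, stood at 535, 579, 743 and 581 in WT control, 474, 530.4, 692 and 505 in WT ethanol, 747, 629.7 and 544 in KO control and 454, 514, 486 and 436 in KO ethanol libraries. Its difference in response became 0.19 with FPKM rescaled to a common sum. In a simulation of the interaction, 35.0% of genes changed by 1 on the log2 scale were recovered, so that differences of this size between genotypes would often be missed.

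The largest differences among the members ran between Xist-high and Y-expressing libraries, a comparison added after the data were seen and fitted as a term beside the 4 group means. It called 5 of 42 members where 4.93% of all genes were called. C6, C8a, C8b and C9, which form the membrane attack complex together with C5b, C7 and C8g, were lower in Xist-high libraries, and Mbl2 was higher. For lower calls alone the share of all genes was 1.46%, and for higher calls 3.48%. The 2 other terminal members, C8g and Hc, had log2 differences of -0.02 ± 0.11 and -0.15 ± 0.20 and were not called. Sex is not in the labels, and the class was set by the level of Xist.

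C6, the terminal component that binds C5b, measured 4.43, 4.94, 99.9 and 67.8 FPKM in WT control, where libraries 1 and 2 are Xist-high. The values were 8.87, 3.76, 37.8 and 5.85 in WT ethanol, where libraries 2 and 4 are, 27.1, 5.13 and 85.6 in KO control, where 1 and 2 are, and 25.7, 13.9, 4.27 and 13.5 in KO ethanol, where library 3 is. In each of the 4 groups every Y-expressing library was above every Xist-high one. The share of all genes separated in this way was not counted. C6, C9, C8b and Mbl2, the genes described so here, were picked by their class call, so the separation adds no support to it. The log2 difference was -2.57 ± 0.44 (limma, adjusted p = 0.00612).

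C9 stood at 41.4, 49.3, 268 and 212 in WT control, 40.5, 15.7, 103 and 30.1 in WT ethanol, 110.0, 53.4 and 188 in KO control and 61.0, 51.1, 29.9 and 52.3 in KO ethanol libraries, with a log2 difference of -1.58 ± 0.27 (limma, adjusted p = 0.00701). C8b, the beta chain of C8, stood at 10.3, 12.5, 86.9 and 69.7 in WT control, 34.2, 21.6, 59.4 and 15.8 in WT ethanol, 55.5, 27.6 and 89.4 in KO control and 45.6, 50.9, 22.1 and 31.7 in KO ethanol, with -1.57 ± 0.27 (limma, adjusted p = 0.00669). In both genes the classes were again separate within each of the 4 groups. C8a, the alpha chain, stood at 17.2, 18.6, 219 and 165 in WT control, 26.1, 32.0, 141 and 15.1 in WT ethanol, 152, 61.2 and 160.0 in KO control and 64.5, 74.8, 26.4 and 34.0 in KO ethanol, with -1.76 ± 0.46 (limma, adjusted p = 0.0478). Its classes overlapped in WT ethanol, where library 1, Y-expressing, was below library 2, and its call was lost in 15 of 27 alternatives, with limma adjusted p from 0.0198 to 0.110 as single libraries were left out.

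Mbl2 ran the other way. Its values were 252, 268, 95.9 and 111 in WT control, 96.9, 129, 55.9 and 154 in WT ethanol, 168, 205 and 103 in KO control and 66.1, 61.1, 109 and 105 in KO ethanol libraries, with a log2 difference of 0.94 ± 0.17 (limma, adjusted p = 0.00792), and within each of the 4 groups every Xist-high library was above every Y-expressing one. Mbl1, its relative on chromosome 14, had -0.21 ± 0.16 and was not called. C6, C8b, C9 and Mbl2 kept their calls in all 27 alternatives tried.

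**Figure D4:**
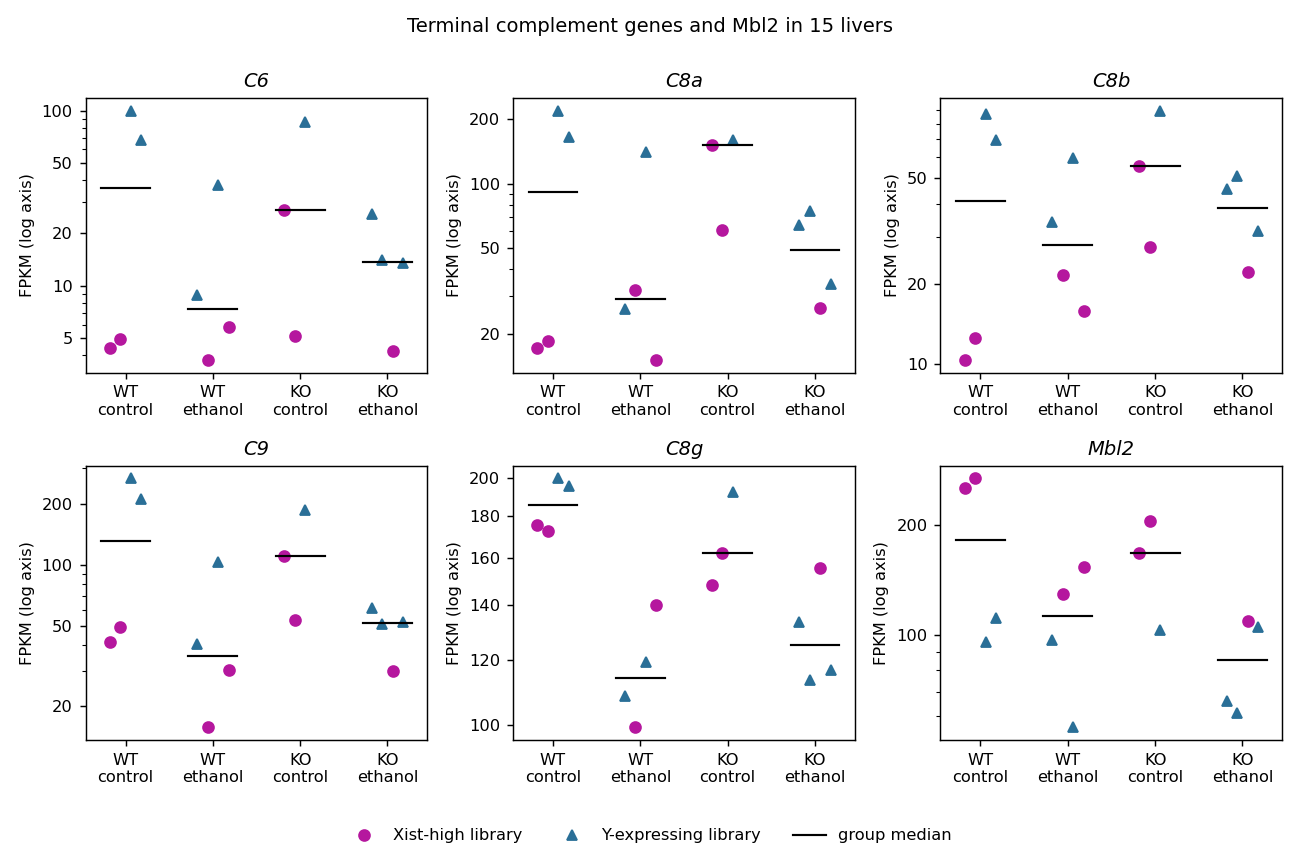
FPKM (log axis) of 5 terminal complement genes and Mbl2 in each library by group. Circles are Xist-high libraries, triangles Y-expressing ones and the bar is the group median. In C6, C8b and C9 the triangles lie above the circles in all 4 groups, in Mbl2 the circles lie above the triangles, and in C8g the classes mix.

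KO control 1 stood apart among the Xist-high libraries in the terminal genes as well as in its total. It held 27.1 FPKM of C6, 152 of C8a, 55.5 of C8b and 110.0 of C9, each above the other 6 Xist-high libraries, although its Xist was at 68.0 and its Ddx3y at 0.0586 FPKM. Without it, C6 ran from 3.76 to 5.85 FPKM in the 6 Xist-high libraries and from 8.87 to 99.9 in the 8 Y-expressing ones, with no overlap. C8b then ran from 10.3 to 27.6 against 31.7 to 89.4, also without overlap. C9 ran from 15.7 to 53.4 against 40.5 to 268 and still overlapped. With KO control 1 kept, C6 and C8b overlapped between the classes as well. Their separation thus depends on leaving out a library that was singled out by these same values as well as by its total. Leaving this library out gave the same number of calls, 5, with log2 differences of -2.73 for C6 and -1.91 for C8a (limma, adjusted p = 0.00376 and 0.0306).

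Other members differed less between the classes. Beyond the 5 called, 6 had an unadjusted p under 0.05: Serpinc1 at 0.34, F7 at 0.42, Cfb at 0.32, F10 at 0.24 and F2 at 0.18 were higher in Xist-high libraries and C1ra at -0.20 lower. The smallest adjusted p of these was 0.0718 by limma, for Serpinc1. With the called members, 11 of 42 had an unadjusted p under 0.05, beside 2950 of the 13840 genes. The 7 vitamin K dependent genes had a median of 0.10 and the fibrinogen genes of -0.17. F9, the member on the X chromosome, had 0.08 ± 0.09. Over all 42 members 20 were positive and 22 negative, beside 61.5% positive among all genes.

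The response to ethanol was not called different between the classes for any member, where 0.0289% of all genes were called. By unadjusted p, 3 members were under 0.05, beside 1445 of the 13840 genes. The 3 members were Masp2 with 0.65 ± 0.17 (limma, adjusted p = 0.24), Hc with 0.91 and C8g with 0.42. Positive values mean that the log2 response was higher in Xist-high than in Y-expressing libraries. In the fits within each class, the response of Masp2 in WT was 0.32 in Xist-high and -0.37 in Y-expressing libraries. In KO it was 0.18 and -0.41, again opposite in sign. The response of Hc was 0.24 and -1.11 in WT and -0.24 and -0.50 in KO. Masp2 was singled out as the member of lowest p, and the KO values rest on an arm of 1 library in each class. Masp2 stood at 73.5, 75.3, 94.2 and 95.6 in WT control, 75.8, 92.9, 71.0 and 92.9 in WT ethanol, 73.4, 84.6 and 102 in KO control and 91.1, 78.3, 89.7 and 63.2 in KO ethanol libraries.

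With the class as a term in the fit, 4 members were called lower with ethanol in WT, where 7.33% of all genes were. These were C8g, C9, Klkb1 and C1s1, with limma adjusted p of 0.0128, 0.0238, 0.0303 and 0.0356. C9 fell by 1.44 on the log2 scale, the same difference as without the term, with an SE of 0.36 in place of 0.66. In KO, C9 alone was called, with -1.78 ± 0.40 (limma, adjusted p = 0.0347), where 2.15% of all genes were called lower. In KO, C6 had -1.97 ± 0.64 and C8a -2.04 ± 0.67 (limma, adjusted p = 0.111 and 0.114). The classes are uneven there, with 2 of 3 KO control but 1 of 4 KO ethanol libraries Xist-high.

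Within the Y-expressing libraries alone no member was called. In each class the KO comparison has an arm of 1 library, control in the Y-expressing and ethanol in the Xist-high class, which is assumed to vary like the other groups, so these KO values rest on 1 mouse in that arm. C9 had -1.86 in WT and -1.76 in KO, C6 -2.09 and -2.27, C8g -0.79 and -0.67 and Klkb1 -0.89 and -0.77. Within the Xist-high libraries alone none was called either. There C9 had -1.02 and -1.33, C6 0.01 and -1.32, C8g -0.55 and 0.00 and Klkb1 -0.52 and -0.51. Of the other terminal genes, C8a had -1.53 in Y-expressing and -1.83 in Xist-high KO libraries and C8b -1.08 and -0.80, while in WT both were negative in the Y-expressing and positive in the Xist-high class.

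The C8a and C8b genes lie 11.1 kb apart on chromosome 4, at chr4:104815679-104876487 and chr4:104766317-104804548 (GRCm38), and C6 and C9 lie 1.64 Mb apart on chromosome 15. The ratio of C8a to C8b ran from 0.763 to 2.74 over libraries and that of C8g to C8b from 2.01 to 16.9, so that the genes of the chains that make up C8 did not keep fixed proportions. Promoter windows of C8a and C8b, chosen as neighbours that were both lower in Xist-high libraries, are chr4:104876349-104876648 on the minus strand and chr4:104766067-104766366 on the plus strand (RefSeq, GRCm38.p6). Capitals mark GTTAAT or its reverse complement, a motif of the hepatocyte factor HNF1.
C8a: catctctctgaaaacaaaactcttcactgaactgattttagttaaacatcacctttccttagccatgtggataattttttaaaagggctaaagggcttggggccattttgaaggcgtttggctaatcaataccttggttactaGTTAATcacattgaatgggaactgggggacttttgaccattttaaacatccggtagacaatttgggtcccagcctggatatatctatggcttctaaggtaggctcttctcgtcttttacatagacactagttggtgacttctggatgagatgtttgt
C8b: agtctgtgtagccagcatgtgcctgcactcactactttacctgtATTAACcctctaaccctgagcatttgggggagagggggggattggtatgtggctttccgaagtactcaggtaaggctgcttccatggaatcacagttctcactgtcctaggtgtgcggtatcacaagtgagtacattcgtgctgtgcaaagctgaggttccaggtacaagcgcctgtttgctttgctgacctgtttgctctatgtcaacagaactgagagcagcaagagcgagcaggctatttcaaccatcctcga
This motif was in 11 of 33 member windows and in 7.1% of all windows, on either strand. The other motifs searched were the HNF4 core CAAAGT, in 7 of 33 and 14.35% of all, the glucocorticoid receptor motif TGTTCT, in 14 and 18.97%, the D-box TTANGTAA, in 1 and 2.32%, the E-box CACGTG, in 0 and 7.15%, and the TATA box TATAAA, in 4 and 13.62%.

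The members differed widely in how much they varied between mice of a group. The residual SD around the 4 group means was 1.67 on the log2 scale for C6, 1.33 for C8a, 1.02 for C8b and 1.02 for C9. With the class as a term it was 0.89, 0.93, 0.54 and 0.55, and for Mbl2 it went from 0.61 to 0.32. Fibrinogen did not follow the class: Fga had 0.89 without and 0.93 with the term. The steadiest members were F12 at 0.11 and Plg at 0.12. The median over members was 0.25, beside 0.23 over all genes.

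**Figure D5:**
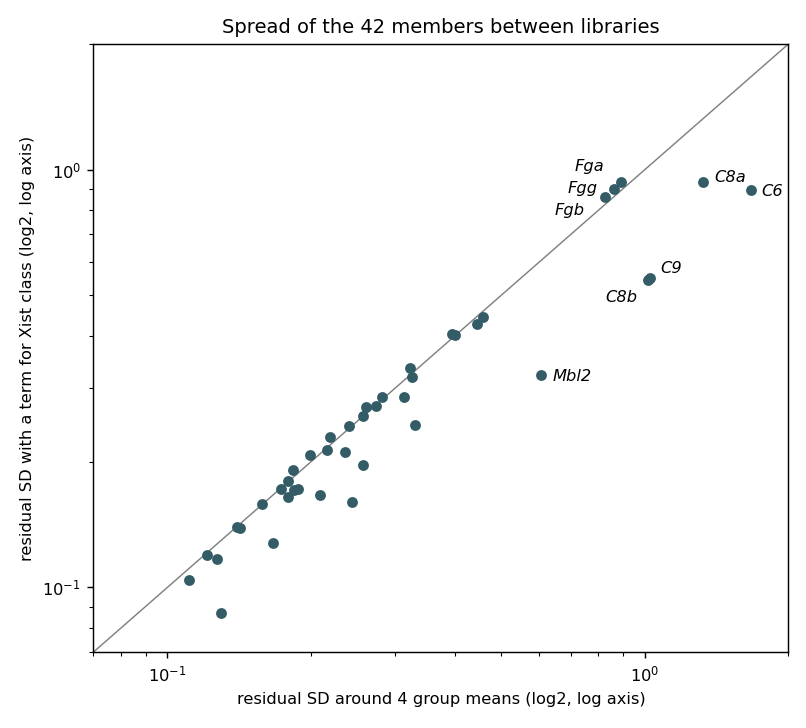
Residual SD of log2(FPKM + 1) for each of the 42 members around the 4 group means (horizontal, log axis) and with a term for Xist class (vertical, log axis); the line marks equality. C6, C8a, C8b, C9 and Mbl2 lie below the line, and the 3 fibrinogen genes, among the most variable, lie on or above it.

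Of the other genes of these pathways, 73 were listed by function and 60 passed the filter. Ethanol called 3 of the 60 in WT, or 5%, where 7.70% of all genes were called. Thrombomodulin (Thbd), the endothelial receptor with which thrombin activates protein C, rose from 1.08, 1.07, 1.32 and 1.28 FPKM in WT control to 17.9, 10.7, 8.38 and 4.23 in WT ethanol, with 2.22 ± 0.33 (limma, adjusted p = 0.00321). Tfpi2, a Kunitz-type protease inhibitor, fell, with -1.04 ± 0.23 (limma, adjusted p = 0.0186), and so did Habp2, a plasma protease that can activate factor VII, with -0.62 ± 0.15 (limma, adjusted p = 0.0242). Habp2 lost its call in 11 of 31 alternatives and Tfpi2 without WT control 2 or WT ethanol 1 (limma, adjusted p = 0.0516 and 0.0544). Beside the rise of Thbd, the 8 sinusoidal endothelial markers had a median log2 difference of -0.53 in WT and -0.67 in KO, and the part of endothelial cells in it was not tested. C7, the one terminal component outside the members, stayed under 1 FPKM in every library.

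In KO, 3 of the 60 were called as well, or 5%, where 4.13% of all genes were. Thbd rose from 2.27, 0.953 and 0.769 FPKM to 7.72, 8.86, 4.92 and 4.46, with 1.69 ± 0.35 (limma, adjusted p = 0.0241). S100a10, a cell surface partner of annexin A2 that binds plasminogen, rose by 1.29 ± 0.28 (limma, adjusted p = 0.0274), and Colec11, a lectin of complement, had -1.002 ± 0.26 (limma, adjusted p = 0.0487). All 3 lost their calls in some fits without 1 library: Thbd without KO control 2 or 3 or KO ethanol 1 or 2, S100a10 without KO control 1 or 2 or KO ethanol 1 or 2, and Colec11 in 10 such fits. The genotype and interaction comparisons called 0 of the 60.

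Between the Xist classes 8 of the 60 were called, or 13.3%, where 4.93% of all genes were. Susd4, a complement inhibitor, stood at 0.420, 0.396, 9.48 and 15.4 FPKM in WT control and 4.78, 0.479, 6.89 and 0.862 in WT ethanol, with -2.43 ± 0.21 (limma, adjusted p = 3.58e-05), and F2r, a thrombin receptor, had -0.80 ± 0.11. Higher in Xist-high libraries were Cd55, which dissociates the C3 convertases, with 0.67, the lectins Colec11, Colec10 and Fcna with 0.54, 0.62 and 0.55, Tfpi, the inhibitor of the tissue factor pathway, with 0.42 and Adamts13, which cleaves von Willebrand factor, with 0.37. Adamts13 lost its call in 16 of 26 alternatives, Colec10 in 6 of 26, Fcna in 6 of 27, Tfpi in 4 of 26 and Colec11 in 3 of 27. Susd4, F2r and Cd55 kept theirs in all 27. The 8 sinusoidal endothelial markers, of which Oit3 and Fcgr2b were called, were all positive in this comparison, with sums of 60.4 to 112 FPKM in Xist-high and 38.1 to 85.6 in Y-expressing libraries. All 8 Kupffer cell markers were positive as well, with sums of 68.5 to 253 and 26.4 to 142. The 253 was that of KO control 1. The other Xist-high libraries ran from 68.5 to 97.7, within the range of the Y-expressing ones. The part of these cells in the class differences was not tested.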

How the data were processed

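RNA of 15 mouse liver libraries was sequenced on an Illumina instrument, per the labels' protocols. TopHat, Cufflinks and Cuffdiff are named in the submitters' processing notes, with versions not given in the sources used here. The authors deposited FPKM per gene and per isoform, and the isoform table lists transcript length as deposited, per the file headers. The notes name mm9, but all 42 members overlap their RefSeq GRCm38.p6 entry and 29 match it to within 10 bases at both ends, so GRCm38 coordinates are used. No read counts were given, and no count model was used. Depth was estimated from the values that 1 fragment gives in 3069 genes, with an error of up to 5.16% on simulated data. Intervals and floors from counts were not used.

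The 13840 of 45861 genes that reached 1 FPKM in 3 or more libraries were fitted with limma 3.58.1 in R 4.3.3 on log2(FPKM + 1), with eBayes and a trend, as 4 group means over all 15 libraries. Adding 1 understates changes of low genes. Tests were 2-sided, with Benjamini-Hochberg adjustment over all genes tested. Replicates are separate mice by their names, and p-values rest on the spread among them. Contrasts were ethanol against control in each genotype, KO against WT on each diet and their interaction. A term for Xist class (above 10 FPKM), its interaction with diet, and fits within each class were run as well. The contrasts of the class itself and the fits within classes were chosen after seeing the data. Tested on simulated data with 200 changed genes among 13840, the fit of ethanol in WT recovered 61.5% of changes of 1 and 89.5% of changes of 2 (log2).

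Members and lists were chosen with earlier results of these data known. Genes were named by this rule: members called in any contrast, or those of lowest p up to 3, library by library, and the called genes of the other pathway list. C9, Kng2, C3, C4b, the fibrinogen genes and others given library by library beyond it were chosen after their values were seen. Group titles gave the groups. The protocol states 4 mice a group, while KO control comprises 3 libraries. Alternatives covered pseudocounts, filters, scalings, library weights, spread models, a replicate block, the placing of WT ethanol 4, gene levels from isoforms and leaving out each library. Python 3.11.15 with numpy 2.4.6, pandas 2.3.3 and matplotlib 3.10.9 made tables and plots.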

Additional observations from a re-analysis of the deposited data

Results flagged for a closer look

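In 126 groups of 4 libraries, 4 held a library far from the other 3 relative to the range of the group, and such a test marks about 1 group in 20 by chance. Fgb in WT control 3 stood at 2015 FPKM, where the other WT control libraries ran from 1024 to 1148. Fgg in the same library stood at 1501, against 751 to 825.1. Serpinc1 in WT ethanol 3 stood at 368 FPKM, against 584.6 to 617.4, and Serpind1 in that library at 64.99, against 107.1 to 117.9. WT ethanol 3 also held the highest value of all 3 fibrinogen genes.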

How the results depend on the processing

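Of the 42 members, the 2 calls for ethanol in WT became 1 with no filter on low values and with only the groups compared in the fit, 6 with quantile normalization, 0 with FPKM rescaled to a common sum, 4 with WT ethanol 4 placed with KO ethanol and with the term for Xist class, and 0 within either class alone. Leaving out each library gave 1 to 4, the 4 without WT ethanol 4. The 0 calls for ethanol in KO became 11 with library weights and 1 with WT ethanol 4 placed with KO ethanol or with the class term, and leaving out each library gave 0 to 2, the 2 without WT ethanol 3. KO against WT on the control diet gave 1 call with library weights, F13b, and otherwise 0. On the ethanol diet and in the interactions the count was 0 under each alternative. The 5 calls for Xist class became 9 with quantile normalization and 8 with library weights, and 4 to 7 as each library was left out. The cause was not tested. Counts over all 13840 genes moved as well. With library weights they rose from 571 to 4140 for ethanol in KO and from 683 to 1673 for Xist class. For KO against WT on the control diet they rose from 25 to 669. With quantile normalization they rose from 1066 to 1478 for ethanol in WT but fell from 683 to 638 for Xist class. The 11 members called in KO with library weights are therefore part of a rise over all genes.

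For the 60 other pathway genes, ethanol in WT gave 3 calls, 5 with library weights, 7 with WT ethanol 4 placed with KO ethanol, 6 with the class term and 0 within either class. Leaving out each library gave 1 (WT control 2 or WT ethanol 1) to 6 (WT ethanol 4). In KO the 3 calls became 0 with no filter, with only the groups compared and within either class, 20 with library weights and 6 with the class term, and leaving out each library gave 0 (KO control 2, KO ethanol 1 or 2) to 4. The 20 stand beside 4140 of all 13840 genes called in KO with library weights. For Xist class the 8 calls became 5 with a mean of at least 5 FPKM required and 13 with library weights, and leaving out each library gave 3 (KO ethanol 3) to 9.

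Same-numbered libraries of different groups had correlations of -0.329 to 0.444. Differently numbered libraries were not set beside them, so these values cannot decide whether the numbers pair the samples. With the replicate number as a block, members gave 2 calls for ethanol in WT, 0 in KO and 4 for Xist class, and the other pathway genes 2, 2 and 4. With FPKM rescaled to a common sum, F10 and F13b reversed to -0.0606 and -0.0436 in KO against WT on the control diet, and Vtn to 0.19 in the interaction. That scaling shifted the median of all genes by 0.26 in KO and 0.35 in the interaction. The share of higher among called genes was 34.0% for ethanol in KO, against 59.6%, 52.2% and 94.8% under median-ratio, quantile and common-sum scaling. Depth limits C6 most, at about 280 fragments in its lowest library.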
